A study of Ambystoma mexicanum with 9 samples.

Results

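DNA repair genes were described across 3 groups of axolotl (Ambystoma mexicanum) spinal cord arrays. The members were the probe sets whose single gene symbol belonged to a named set of repair families, such as the RAD genes with a number, XRCC, FANC, ERCC, MSH, BRCA, PARP and NEIL, together with ATM, ATR, the CHEK and APEX genes and a few polymerases, ligases and glycosylases. The rule reads gene names and no measured value, although the families were picked with earlier results of these data known, and it gave 70 probe sets for 60 genes among the 20035 probe sets tested.

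The axolotl regrows its spinal cord after injury, and the study asked which transcripts change when the cord is treated with ivermectin (IVM), which opens chloride channels gated by glycine. The group called 1dpi_IVM here (3 arrays, titled 1dpiT in the labels) was cord taken 1 day after IVM injection. That is all its source label gives. Injection into the central canal and removal of a piece of cord are taken from the study's description. The 1dpi group (3 arrays) was cord taken 1 day after injury. The 1dpi label calls the injury a crush and does not name an injection, whereas the series text describes a water injection followed by removal of cord tissue. If the label holds, IVM, injection and kind of injury may all differ between 1dpi_IVM and 1dpi, and their parts cannot be told apart. Below, "with IVM" stands for 1dpi_IVM against 1dpi. The 0dpi group (3 arrays) was uninjured cord. Each array was made from 150 ng of total RNA, taken from a pool of 10 animals that were 2 to 3 cm long. The IVM dose was not given in the sources used here.

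Repair proteins find damaged DNA and restore its sequence by routes that suit the lesion. Base excision repair removes single altered bases, nucleotide excision repair cuts out bulky lesions, mismatch repair corrects copying errors, and double-strand breaks are mended by end joining or by recombination with an intact copy. Checkpoint kinases hold the cell cycle while repair proceeds, and many recombination and checkpoint genes are transcribed most in dividing cells. In the regenerating axolotl cord, the ependymoglia that line the central canal divide to replace lost tissue. The roles given for single genes below are those known from human, mouse or yeast cells.

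Array values were log2 signals, on which a step of 1 is a doubling. They can be compared between groups for 1 probe set, not between probe sets. Differences are log2 values with their standard error (SE), from limma fitted to all 20035 probe sets, and a probe set was called where its p adjusted over all of them (Benjamini-Hochberg, 2-sided) was below 0.05. The 3 arrays of a group are separate pools, so p-values measure the spread between pools. Of the 70 member probe sets, 67 had a mean above 3.47, the level of the brightest negative control, and the members' median level was 5.76 beside 5.87 for all probe sets. BRCA2, PARP8 and RAD54L2 were the 3 with a mean below it, although single arrays of BRCA2 and RAD54L2 lay just above.

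One day after injury, members of the repair families were more often higher in IVM-treated cord than in 1dpi cord. In 1dpi_IVM against 1dpi, 29 of the 70 member probe sets (41.4%) were called higher, beside 29% of all probe sets tested. Another 9 (12.9%) were called lower, beside 25% of all probe sets. The median difference of the members was 0.11, against 0.00 over all probe sets, and the range was -0.65 to 1.19. Only 4 members reached a 2-fold difference, and all 4 were higher with IVM: PARP16, ERCC8, CHEK1 and 1 of the probe sets of BRCA1.

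The injured cord, in turn, had more members lower than higher against uninjured cord. In 1dpi against 0dpi, 7 members (10%) were called higher, beside 24.7% of all probe sets, and 30 (42.9%) were called lower, beside 28.2%. The median difference was -0.15, against 0.00 over all probe sets, and PARP16 was the 1 member that was at least 2-fold lower. These counts share the 1dpi arrays with the IVM comparison, so the pair of comparisons is not independent, and a member that is low on the 1dpi arrays is pulled apart in both.

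For most members no difference between IVM-treated and uninjured cord was called. In 1dpi_IVM against 0dpi, 3 members (4.29%) were called higher, beside 2.26% of all probe sets, and 0 were called lower, beside 3.34%. At an unadjusted p below 0.05 in the same limma fit, 8 members were higher and 3 lower. The share of all probe sets at that threshold was not computed, so no excess can be read from these counts. The plot of shares called sets the members beside all probe sets in each comparison.

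**Figure D1:**
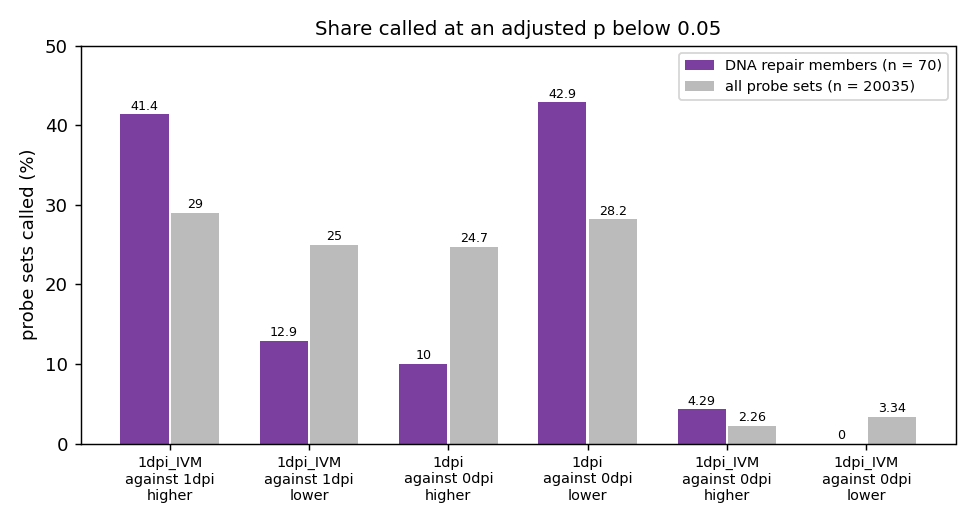
Percent of probe sets called at an adjusted p below 0.05 (limma), for the 70 DNA repair members (purple) and all 20035 probe sets (grey), in each comparison and direction. Members were called higher in 41.4% against 29% of all probe sets in 1dpi_IVM against 1dpi, and lower in 42.9% against 28.2% in 1dpi against 0dpi. After centring on the spike-ins 87.5% of all probe sets are called higher in the first of these comparisons and 84.6% lower in the second.

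These directions are relative to the whole array, because RMA brings all arrays to 1 distribution. Poly-A spike-in RNAs averaged 7.43 ± 0.047 on the 1dpi_IVM arrays and 8.08 ± 0.044 on the 1dpi arrays. On the 0dpi arrays they averaged 7.54 ± 0.029 (SD, n = 3 in each group). The paper's methods do not state how much was added to each sample. A scale centred on the spike-ins assumes equal amounts, which was not tested. Centring on the spike-ins shifts the median of all probe sets by 0.65 in 1dpi_IVM against 1dpi and by -0.55 in 1dpi against 0dpi. On that scale 69 members were higher and 0 lower with IVM, and 0 were higher and 67 lower in 1dpi against 0dpi. Of all probe sets, 87.5% were higher and 5.6% lower in the first comparison and 6.32% higher and 84.6% lower in the second, so nearly the whole array takes these directions on that scale. The calls of lower members in the first comparison and of higher members in the second therefore hold only relative to the array as a whole.

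Dividing-cell genes and several sets of tissue markers also differed between these groups. Mean levels of 38 DNA replication genes were 8.73 to 8.76 on 1dpi_IVM arrays, 7.90 to 7.93 on 1dpi arrays and 8.56 to 8.61 on 0dpi arrays, and those of 27 mitosis genes were 8.26 to 8.30, 6.96 to 7.04 and 8.20 to 8.24 in the same order. Muscle markers (10 of 14 measured, none at or below background) ran the other way, at 10.84 to 10.89 in 1dpi_IVM, 12.51 to 12.52 in 1dpi and 10.98 to 11.01 in 0dpi, as did the 5 measured erythrocyte markers, at 6.47 to 6.56, 7.57 to 7.66 and 6.64 to 6.67. Neuronal markers (11 of 14 measured) were at 6.56 to 6.60 in 1dpi_IVM, 6.81 to 6.90 in 1dpi and 6.40 to 6.43 in 0dpi, with MAP2 and SYT1 at or below background. Ependymoglial markers (8 of 10 measured) were at 7.96 to 8.04, 8.25 to 8.35 and 7.86 to 7.96, and 10 leukocyte markers at 7.56 to 7.61, 7.88 to 7.91 and 7.74 to 7.79. Epithelial markers (8 of 11 measured) were at 10.96 to 11.02, 11.05 to 11.08 and 11.10 to 11.15, and the 2 measured myelin markers at 8.75 to 8.87, 8.61 to 8.71 and 8.70 to 8.92. The myelin mean joins opposite calls. With IVM CNP was called higher (0.99 ± 0.11) and both MBP probe sets lower (-0.68 ± 0.045 and -0.32 ± 0.055). Of 23 epithelial probe sets, 12 were called higher and 5 lower with IVM, and 3 higher and 14 lower in 1dpi against 0dpi. Leukocyte probe sets were also mixed: of 15, 3 were called higher and 8 lower with IVM, and 6 higher and 4 lower in 1dpi against 0dpi. Of 14 muscle probe sets, 1 (of DES) was called higher and 13 lower with IVM. In 1dpi against 0dpi 13 were higher and 1 lower. For 12 ependymoglial probe sets the counts were 2 (both of MSI1) higher and 7 lower with IVM, then 7 and 1. For 13 neuronal probe sets they were 1 (ELAVL4) and 6, then 7 and 0. Of 54 DNA replication probe sets, 49 were called higher and 0 lower with IVM, and 0 higher and 49 lower in 1dpi against 0dpi. For 40 mitosis probe sets the counts were 37 and 0, then 0 and 37. The shares of all probe sets were 29% and 25%, and 24.7% and 28.2%. The part of these shifts in the members' differences was not tested, and in bulk tissue fewer cells of a type and less RNA per cell cannot be told apart.

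Brightness mattered for what could be called. Among the 32 members above the median level of the array, 16 were called higher and 4 lower with IVM, beside 41% and 30.9% of all probe sets above it. Among the 38 at or below that median, 13 were called higher and 5 lower, beside 17.1% and 19.2%. The plot of all member differences shows both comparisons by role.

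**Figure D2:**
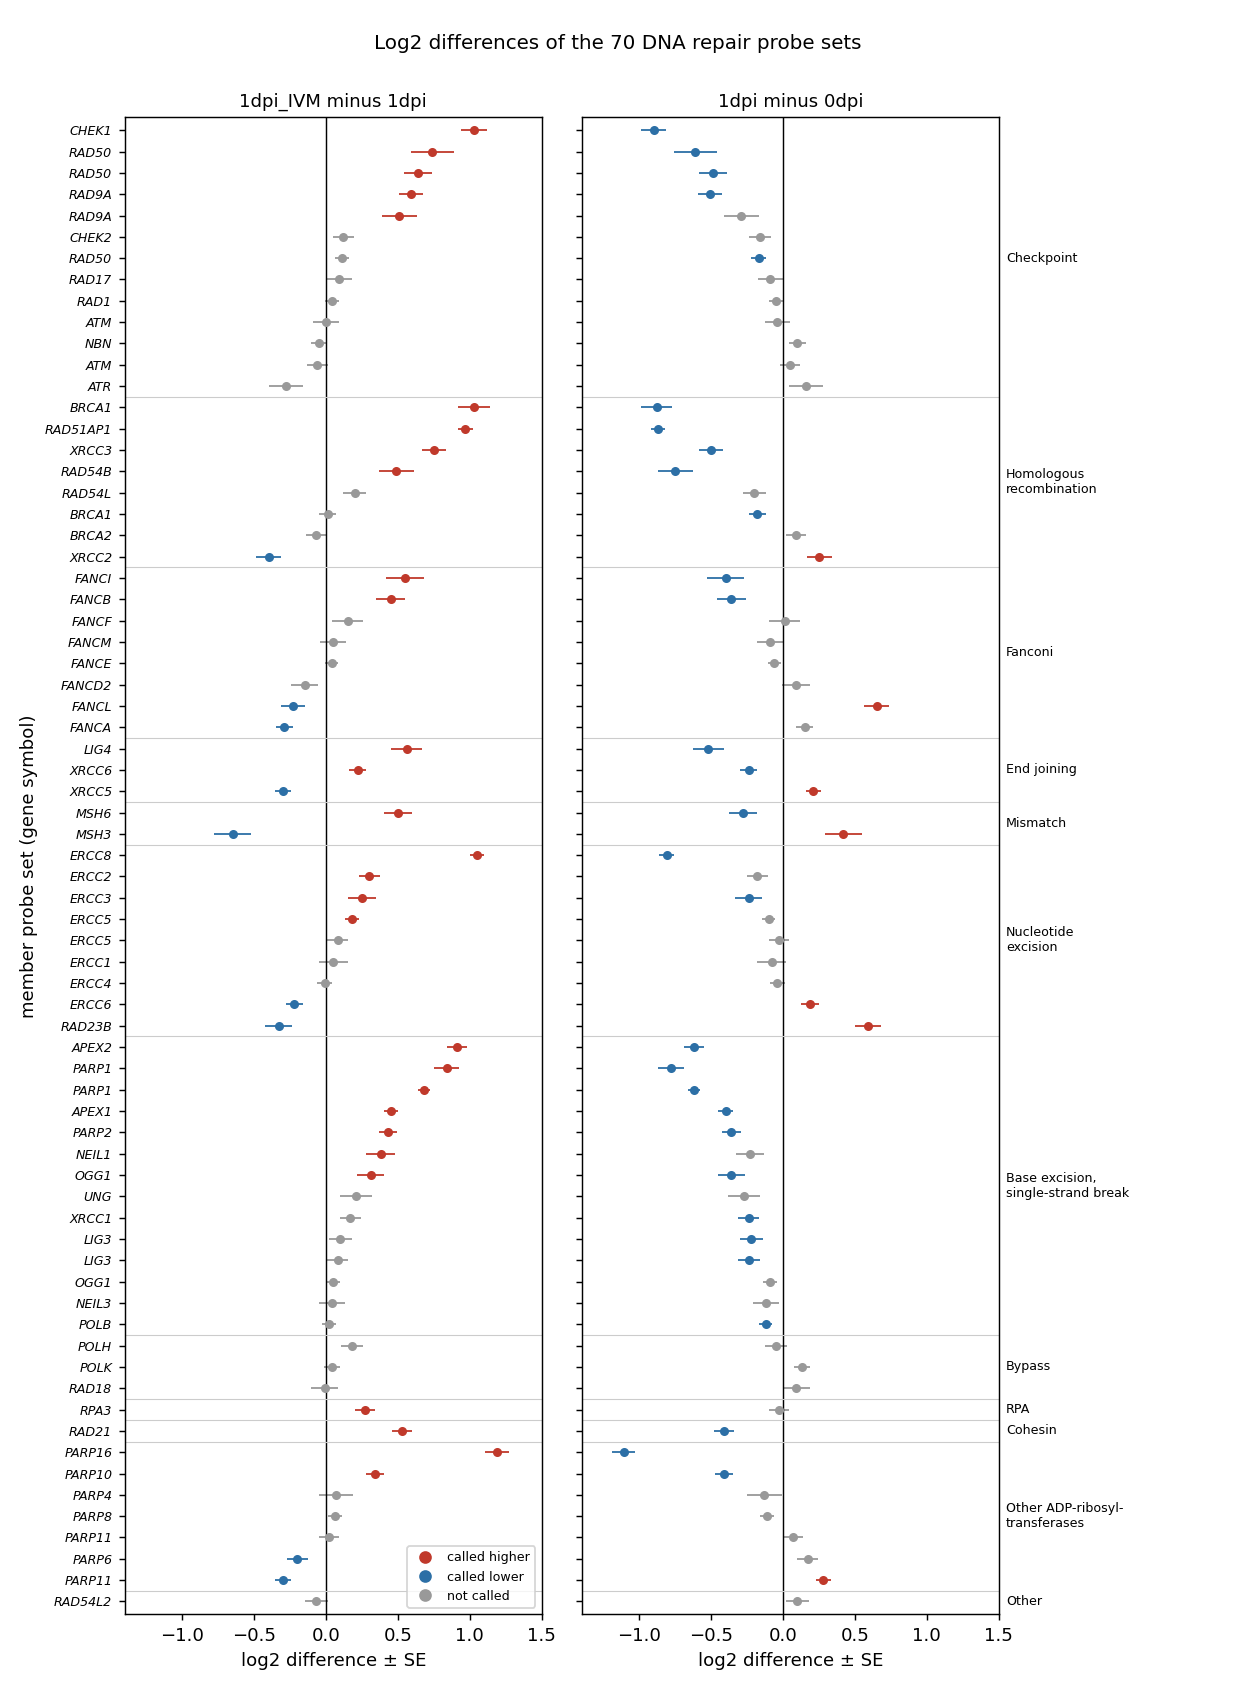
Log2 difference ± SE of each of the 70 member probe sets, grouped by role, in 1dpi_IVM minus 1dpi (left) and 1dpi minus 0dpi (right). Red, called higher; blue, called lower; grey, not called (adjusted p, limma). The largest IVM differences are PARP16 at 1.19, ERCC8 at 1.05, and CHEK1 and BRCA1 at 1.03; after spike-in centring no blue point at left is called lower and no red point at right is called higher.

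In the checkpoint group, which senses breaks and stalled forks, 13 probe sets of 9 genes were measured. In 1dpi_IVM against 1dpi 5 (38.5%) were called higher and 0 lower, beside 29% and 25% of all probe sets. In 1dpi against 0dpi 0 were higher and 5 (38.5%) lower, beside 24.7% and 28.2%. In each comparison the 5 calls came from CHEK1, RAD50 and RAD9A alone, so these shares count some genes more than once. CHEK1, the kinase that restrains the cell cycle when replication stalls, measured 6.25, 6.29 and 5.98 on the 1dpi_IVM arrays, 5.22, 5.14 and 5.07 on the 1dpi arrays, and 5.92, 6.09 and 6.11 on the 0dpi arrays. The 1dpi arrays lay below all others. Its difference was 1.03 ± 0.088 with IVM (adjusted p = 3.47e-06, 2.04-fold) and -0.90 ± 0.088 in 1dpi against 0dpi (adjusted p = 1.09e-05). RAD9A, a subunit of the sliding clamp that loads at damaged DNA, was called higher with IVM by both of its probe sets. The brighter one read 6.68, 6.85 and 6.89 in 1dpi_IVM, 6.18, 6.38 and 6.09 in 1dpi, and 6.78, 6.65 and 6.73 in 0dpi, a difference of 0.59 ± 0.082 with IVM (adjusted p = 0.000139). The clamp partner RAD1 and the clamp loader RAD17 were not called in any comparison, with IVM differences of 0.04 ± 0.05 and 0.09 ± 0.088.

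The kinases at the top of the pathway were not called. ATM, which responds to double-strand breaks, had IVM differences of -0.06 ± 0.071 and 0.00 ± 0.089 on its probe sets, and ATR, which responds to single-stranded DNA, had -0.28 ± 0.12 (adjusted p = 0.0663). The ATM probe sets were dim, with means of 4.63 and 3.48. The second lay at about the background level of 3.47, so little can be read from it. ATR read 4.60, 4.49 and 4.08 in 1dpi_IVM, 4.54, 4.76 and 4.72 in 1dpi, and 4.52, 4.50 and 4.52 in 0dpi, and 1 IVM array lay below all others. With 1dpi_IVM replicate 1 or 1dpi replicate 1 left out ATR was called lower with IVM (-0.39, adjusted p = 0.0197, and -0.35, adjusted p = 0.0475), and after spike-in centring it was called higher (0.37, adjusted p = 0.0194). CHEK2, the kinase downstream of ATM, had 0.12 ± 0.074 (adjusted p = 0.212) on a dim probe set with a mean of 3.76. RAD50 and NBN belong to the complex that tethers broken ends: 2 of the 3 RAD50 probe sets were called higher with IVM (0.64 ± 0.097 and 0.74 ± 0.15), the brightest was not (0.11 ± 0.051), and NBN was not (-0.05 ± 0.057). All 3 RAD50 probe sets were called lower in 1dpi against 0dpi, the brightest by the least (-0.17 ± 0.051), and with 0dpi replicate 3 left out that probe set was no longer called (adjusted p = 0.0606).

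Homologous recombination held several of the largest differences. IVM went with 4 of 8 probe sets (50%) higher and 1 (12.5%) lower, beside 29% and 25% of all probe sets. In 1dpi against 0dpi 1 (12.5%) was higher and 5 (62.5%) lower, beside 24.7% and 28.2%. RAD51AP1, which stimulates strand invasion, read 8.07, 8.05 and 7.98 on the 1dpi_IVM arrays, 7.07, 7.03 and 7.08 on the 1dpi arrays, and 7.86, 7.95 and 7.96 on the 0dpi arrays. The groups did not overlap in either comparison with 1dpi. It was 0.97 ± 0.05 higher with IVM (adjusted p = 8.7e-08) and differed by -0.87 ± 0.05 in 1dpi against 0dpi (adjusted p = 2.38e-07). The brighter probe set of BRCA1, which promotes resection of broken ends and their repair by recombination, read 6.45, 6.33 and 5.96 in 1dpi_IVM, 5.18, 5.17 and 5.29 in 1dpi, and 6.04, 6.13 and 6.11 in 0dpi. That was a difference of 1.03 ± 0.11 with IVM (adjusted p = 1.55e-05) and of -0.88 ± 0.11 in 1dpi against 0dpi (adjusted p = 5.41e-05). The dimmer BRCA1 probe set did not follow it: 4.89, 4.96 and 4.85 in 1dpi_IVM, 4.92, 4.85 and 4.90 in 1dpi, and 5.05, 4.99 and 5.18 in 0dpi, with an IVM difference of 0.01 ± 0.059. Its call in 1dpi against 0dpi (-0.18 ± 0.059, adjusted p = 0.0247) was lost without 1dpi replicate 2 or 3 or 0dpi replicate 3, with adjusted p up to 0.0959. BRCA2, a mediator of recombination, had a mean below the background level and an IVM difference of -0.07 ± 0.068.

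XRCC3 and XRCC2, which assist strand exchange, were called in opposite directions. XRCC3 read 5.30, 5.41 and 5.36 in 1dpi_IVM, 4.81, 4.46 and 4.55 in 1dpi, and 5.11, 5.05 and 5.17 in 0dpi, a difference of 0.75 ± 0.084 with IVM (adjusted p = 2.79e-05) and of -0.50 ± 0.084 in 1dpi against 0dpi (adjusted p = 0.00053). XRCC2 read 6.83, 6.59 and 6.81 in 1dpi_IVM, 6.98, 7.25 and 7.21 in 1dpi, and 6.84, 6.97 and 6.86 in 0dpi. It was lower with IVM by a difference of -0.40 ± 0.087 (adjusted p = 0.00272), which became 0.25 after spike-in centring, and was called higher in 1dpi against 0dpi (0.25 ± 0.087, adjusted p = 0.032). The last call was lost without 1dpi replicate 2 or 3 or 0dpi replicate 1 or 3, with adjusted p up to 0.112. RAD54B, a motor protein that remodels chromatin during recombination, read 5.44, 5.0 and 5.02 in 1dpi_IVM, 4.49, 4.78 and 4.72 in 1dpi, and 5.36, 5.50 and 5.39 in 0dpi. Its differences were 0.49 ± 0.12 with IVM (adjusted p = 0.00478) and -0.75 ± 0.12 in 1dpi against 0dpi (adjusted p = 0.000327). The related motor RAD54L was not called in any comparison, with an IVM difference of 0.20 ± 0.079 (adjusted p = 0.0562). With 1dpi replicate 1 or 0dpi replicate 1 left out it was called higher with IVM (0.25, adjusted p = 0.0372, and 0.20, adjusted p = 0.032). Without 1dpi replicate 1 or 0dpi replicate 3 it was called lower in 1dpi against 0dpi (-0.25 in each fit).

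Fanconi anaemia genes, which act together at crosslinks between the DNA strands, were called about as often as probe sets at large, with 2 of 8 (25%) higher and 2 (25%) lower with IVM, beside 29% and 25% of all probe sets. FANCL, the ubiquitin ligase of the pathway, had its highest values in 1dpi and its lowest in 0dpi, with 6.52, 6.34 and 6.38 on the 1dpi_IVM arrays, 6.54, 6.73 and 6.65 on the 1dpi arrays, and 5.87, 5.95 and 6.16 on the 0dpi arrays. It was 0.65 ± 0.085 higher in 1dpi than in 0dpi (adjusted p = 8.98e-05, not called after spike-in centring) and 0.42 ± 0.085 higher in 1dpi_IVM than in 0dpi (adjusted p = 0.018). Its difference with IVM was -0.23 ± 0.085 (adjusted p = 0.0415), and this call was lost without 1dpi_IVM replicate 2 or 3, 1dpi replicate 2 or 3 or 0dpi replicate 2, with adjusted p up to 0.136, and turned to 0.42 after spike-in centring. FANCL against 0dpi lost its call without 1dpi_IVM replicate 1 or 0dpi replicate 1 or 2, with adjusted p up to 0.0716. FANCB and FANCA belong to the core complex that carries FANCL. FANCB was called higher with IVM (0.45 ± 0.10, adjusted p = 0.0037) and FANCA lower (-0.29 ± 0.058, adjusted p = 0.00177, 0.36 after spike-in centring). The ligase's substrates also differed, with FANCI called higher (0.55 ± 0.13, adjusted p = 0.00459) and FANCD2 not called (-0.15 ± 0.097). With 1dpi replicate 1 left out FANCD2 was called lower with IVM (-0.26, adjusted p = 0.0194). FANCI was called lower in 1dpi against 0dpi (-0.40 ± 0.13), and this call was lost without any one of the 1dpi arrays or 0dpi replicate 2, with adjusted p up to 0.0901. FANCE, FANCF and FANCM were called in no comparison.

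End joining showed a split within 1 protein pair. XRCC5 and XRCC6 encode the subunits of Ku, the ring that grips broken ends. XRCC5 read 8.48, 8.46 and 8.45 in 1dpi_IVM, 8.67, 8.82 and 8.79 in 1dpi, and 8.52, 8.59 and 8.56 in 0dpi, a difference of -0.30 ± 0.053 with IVM (adjusted p = 0.000787) that became 0.35 after spike-in centring. XRCC6 read 8.24, 8.21 and 8.33 in 1dpi_IVM, 8.09, 8.07 and 7.97 in 1dpi, and 8.26, 8.37 and 8.24 in 0dpi, a difference of 0.22 ± 0.059 (adjusted p = 0.0101). In 1dpi against 0dpi the differences were 0.21 ± 0.053 for XRCC5 (adjusted p = 0.00778, -0.34 after spike-in centring) and -0.24 ± 0.059 for XRCC6 (adjusted p = 0.00528). Both shifts were small, and within each subunit the 1dpi arrays did not overlap the others. LIG4, the ligase that seals the joined ends, was higher with IVM, at 6.96, 6.85 and 6.86 in 1dpi_IVM, 6.25, 6.22 and 6.53 in 1dpi, and 6.72, 6.73 and 7.11 in 0dpi (0.56 ± 0.11, adjusted p = 0.00181).

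The mismatch genes were MSH6 and MSH3, which belong to alternative complexes that recognise small and larger mismatches. MSH6 read 7.30, 7.35 and 7.06 in 1dpi_IVM, 6.76, 6.76 and 6.69 in 1dpi, and 6.86, 7.20 and 6.98 in 0dpi, and was 0.50 ± 0.095 higher with IVM (adjusted p = 0.00116). MSH3 read 3.32, 2.98 and 3.45 in 1dpi_IVM, 3.82, 4.09 and 3.77 in 1dpi, and 3.32, 3.46 and 3.65 in 0dpi. Its difference with IVM was -0.65 ± 0.13 (adjusted p = 0.00183), but the 3 IVM values lay below the background mean of 3.47. Relative to the array as a whole, the 1dpi mean lay 1.34-fold above that level. This figure carries no error and is not a firm minimum for the difference. MSH3 was not called with IVM after spike-in centring, so the figure does not hold on that scale. The 0dpi values of 3.32 and 3.46 also lay below the background mean. In 1dpi against 0dpi, MSH6 differed by -0.28 ± 0.095 (adjusted p = 0.0314) and MSH3 by 0.42 ± 0.13 (adjusted p = 0.0214, -0.13 after spike-in centring). The MSH6 call was lost without any one of the 1dpi arrays or 0dpi replicate 2 or 3, with adjusted p up to 0.117, and the MSH3 call without 1dpi replicate 2 or 0dpi replicate 1 or 2, with adjusted p up to 0.0826.

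Of the 9 that read nucleotide excision genes, 4 (44.4%) were called higher and 2 (22.2%) lower with IVM, beside 29% and 25% of all probe sets. In 1dpi against 0dpi 2 (22.2%) were higher and 2 (22.2%) lower, beside 24.7% and 28.2%. ERCC8, the Cockayne syndrome protein that marks RNA polymerase stalled at a lesion, stood out at 7.20, 7.29 and 7.34 in 1dpi_IVM, 6.26, 6.24 and 6.17 in 1dpi, and 7.04, 7.04 and 7.03 in 0dpi. Its difference was 1.05 ± 0.052 with IVM (adjusted p = 7.03e-08, 2.07-fold) and -0.81 ± 0.052 in 1dpi against 0dpi (adjusted p = 5.2e-07). ERCC8 was also called higher in 1dpi_IVM than in 0dpi (0.24 ± 0.052, adjusted p = 0.0266), although that call was lost without 1dpi_IVM replicate 2 or 3 or any one of the 0dpi arrays, with adjusted p up to 0.0953. Its partner in transcription-coupled repair, ERCC6, ran the other way, at 4.28, 4.17 and 4.12 in 1dpi_IVM, 4.43, 4.37 and 4.43 in 1dpi, and 4.25, 4.11 and 4.29 in 0dpi. That was a difference of -0.22 ± 0.062 with IVM (adjusted p = 0.0115), or 0.43 after spike-in centring. Its difference in 1dpi against 0dpi was 0.19 ± 0.062 (adjusted p = 0.0221, -0.35 after spike-in centring), a call lost without 1dpi replicate 1 or 3 or 0dpi replicate 2, with adjusted p up to 0.0866.

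RAD23B, which stabilises the damage sensor XPC, read 4.90, 4.98 and 4.65 in 1dpi_IVM, 5.05, 5.23 and 5.24 in 1dpi, and 4.61, 4.46 and 4.66 in 0dpi. It was 0.59 ± 0.093 higher in 1dpi than in 0dpi (adjusted p = 0.000344), not called there after spike-in centring, and differed by -0.33 ± 0.093 with IVM (adjusted p = 0.013), or 0.32 after spike-in centring. ERCC2 and ERCC3, the helicases of TFIIH that open the DNA around a lesion, were called higher with IVM by 0.30 ± 0.073 (adjusted p = 0.00497) and 0.25 ± 0.094 (adjusted p = 0.042). The 1dpi_IVM and 1dpi values of ERCC3 overlapped, as did its 1dpi and 0dpi values (-0.24 ± 0.094, adjusted p = 0.0492). Both calls were lost in 7 of 9 fits that each left out 1 array, with adjusted p up to 0.155 and 0.179, and only without 1dpi replicate 3 or 0dpi replicate 1 did they remain. The nuclease subunits ERCC1 and ERCC4 were not called, with IVM differences of 0.05 ± 0.10 and -0.01 ± 0.05. For ERCC5, the nuclease that cuts on the other side of the lesion, the dimmer probe set was called higher with IVM (0.18 ± 0.047, adjusted p = 0.00814) and the brighter was not (0.08 ± 0.071).

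Base excision and single-strand break repair was called in 1 direction in each comparison with the 1dpi arrays. With IVM, 7 of its 14 probe sets (50%) were higher and 0 lower, beside 29% and 25% of all probe sets. In 1dpi against 0dpi 0 were called higher and 10 (71.4%) lower, beside 24.7% and 28.2%. PARP1, which detects strand breaks and marks the site with poly(ADP-ribose), had 8.70, 8.70 and 8.74 on its brighter probe set in 1dpi_IVM, 8.03, 8.07 and 8.02 in 1dpi, and 8.64, 8.67 and 8.66 in 0dpi. Both of its probe sets were called, by 0.68 ± 0.043 (adjusted p = 4.23e-07) and 0.84 ± 0.088 (adjusted p = 1.76e-05) with IVM and by -0.62 ± 0.043 and -0.78 ± 0.088 in 1dpi against 0dpi. The related sensor PARP2 differed by 0.43 ± 0.065 with IVM (adjusted p = 0.000254). That probe set was dim, and its 1dpi values of 3.40, 3.38 and 3.56 lay around the background level of 3.47. APEX1 and APEX2 cut the backbone beside a lost base. APEX2 read 7.41, 7.40 and 7.48 in 1dpi_IVM, 6.44, 6.70 and 6.44 in 1dpi, and 7.16, 7.16 and 7.12 in 0dpi, a difference of 0.91 ± 0.071 with IVM (adjusted p = 1.84e-06) and of -0.62 ± 0.071 in 1dpi against 0dpi (adjusted p = 3.27e-05). It was also 0.28 ± 0.071 higher in 1dpi_IVM than in 0dpi (adjusted p = 0.0483), a call lost in 7 of 9 fits that each left out 1 array, with adjusted p up to 0.144, and kept only without 1dpi replicate 1 or 2. APEX1, the main enzyme of the pair in mammals, read 9.96, 9.96 and 9.89 in 1dpi_IVM, 9.44, 9.51 and 9.51 in 1dpi, and 9.94, 9.89 and 9.83 in 0dpi (0.45 ± 0.05 with IVM, adjusted p = 2.63e-05).

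The polymerase, ligase and scaffold of the pathway were not called with IVM. POLB, the polymerase that fills the gap, read 8.59, 8.64 and 8.63 in 1dpi_IVM, 8.59, 8.60 and 8.62 in 1dpi, and 8.67, 8.74 and 8.76 in 0dpi, an IVM difference of 0.02 ± 0.046. LIG3 and its scaffold XRCC1, which seal the nick, had IVM differences that were not called (0.08 ± 0.076 and 0.10 ± 0.079 for the LIG3 probe sets, 0.17 ± 0.074 for XRCC1). With 1dpi_IVM replicate 2 left out XRCC1 was called higher with IVM (0.23, adjusted p = 0.038). In 1dpi against 0dpi these 4 probe sets were called lower by small amounts (-0.12 ± 0.046 for POLB, -0.22 ± 0.079 and -0.24 ± 0.076 for LIG3, and -0.24 ± 0.074 for XRCC1), and each call was lost without some arrays. POLB lost its call in 7 of 9 such fits (all but those without 1dpi_IVM replicate 1 or 0dpi replicate 1), with adjusted p up to 0.131. The dimmer LIG3 probe set lost it without any one of the 1dpi_IVM arrays, 1dpi replicate 2 or 3 or 0dpi replicate 3 (up to 0.155), the brighter without 1dpi replicate 2 or 3 or 0dpi replicate 2 or 3 (up to 0.0906), and XRCC1 without 1dpi replicate 1 or 3 or 0dpi replicate 2 or 3 (up to 0.0689). Among the glycosylases that remove altered bases, NEIL1 (0.38 ± 0.099, adjusted p = 0.00812) and 1 of the OGG1 probe sets (0.31 ± 0.095, adjusted p = 0.0201) were called higher with IVM, while NEIL3 (0.04 ± 0.09) and UNG (0.21 ± 0.11) were not. The OGG1 call was lost without 1dpi_IVM replicate 2 or 3 or 1dpi replicate 2, with adjusted p up to 0.0669.

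**Figure D3:**
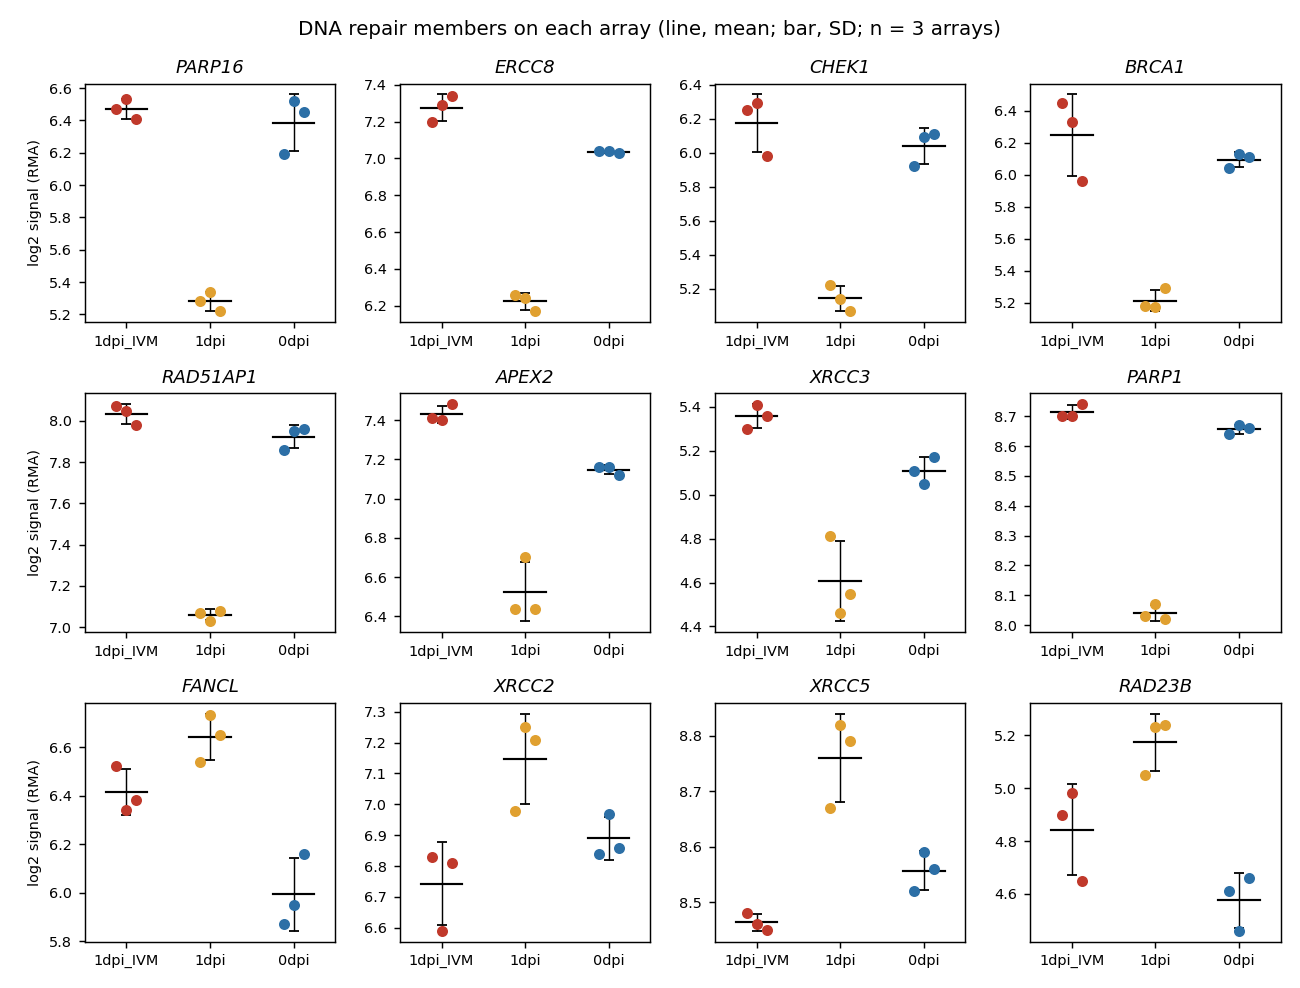
Log2 signal on each array for 12 members (brightest probe set of each gene), with 1dpi_IVM, 1dpi and 0dpi from left to right; points are arrays, lines means and bars SD (n = 3). In the upper 8 panels the 1dpi arrays lie below both other groups (PARP16 at 5.22 to 5.34 in 1dpi); in the lower 4 they lie highest (XRCC5 at 8.67 to 8.82), but after spike-in centring all 4 are higher in 1dpi_IVM than in 1dpi.

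The remaining roles were small. POLH and POLK, polymerases that copy across damage, and RAD18, the ligase that recruits them by modifying PCNA, were not called in any comparison, with IVM differences of 0.18 ± 0.079, 0.04 ± 0.055 and -0.01 ± 0.094. POLH was called higher with IVM without 0dpi replicate 2 (adjusted p = 0.0264). POLK was called higher in 1dpi against 0dpi without 0dpi replicate 3 (0.16, adjusted p = 0.0432). RPA3, the smallest subunit of the protein that coats single-stranded DNA, read 10.06, 10.15 and 10.17 in 1dpi_IVM, 9.75, 9.87 and 9.94 in 1dpi, and 10.00, 9.78 and 9.88 in 0dpi. It was called higher with IVM (0.27 ± 0.07, adjusted p = 0.0072) and not in 1dpi against 0dpi (-0.03 ± 0.07). RAD21, a cohesin subunit that holds sister chromatids together, read 9.09, 8.98 and 8.97 in 1dpi_IVM, 8.35, 8.57 and 8.54 in 1dpi, and 8.83, 8.95 and 8.90 in 0dpi (0.53 ± 0.07 with IVM, adjusted p = 9.14e-05). RAD54L2, a chromatin remodeller that takes its name from RAD54, had a mean below the background level.

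Members of the PARP family that are not mainly break sensors were also called at shares near those of all probe sets, with 2 of 7 (28.6%) higher and 2 (28.6%) lower with IVM. PARP16, an ADP-ribosyltransferase of the endoplasmic reticulum membrane, had the largest difference of all 70 members. It read 6.47, 6.53 and 6.41 on the 1dpi_IVM arrays, 5.28, 5.34 and 5.22 on the 1dpi arrays, and 6.19, 6.52 and 6.45 on the 0dpi arrays. The difference was 1.19 ± 0.083 with IVM (adjusted p = 7.54e-07, 2.28-fold), -1.11 ± 0.083 in 1dpi against 0dpi (adjusted p = 1.42e-06) and 0.08 ± 0.083 in 1dpi_IVM against 0dpi (adjusted p = 0.681). PARP10, which attaches single ADP-ribose units, was called higher with IVM (0.34 ± 0.063, adjusted p = 0.00103). The brighter probe set of PARP11, another enzyme of this kind, was called lower (-0.30 ± 0.053, adjusted p = 0.000631), at 8.39, 8.49 and 8.47 in 1dpi_IVM, 8.70, 8.79 and 8.77 in 1dpi, and 8.43, 8.47 and 8.53 in 0dpi, and became 0.34 after spike-in centring. PARP6 was called lower (-0.20 ± 0.074, adjusted p = 0.0423, 0.45 after spike-in centring) and lost that call in 7 of 9 fits that each left out 1 array, with adjusted p up to 0.138, keeping it only without 0dpi replicate 1 or 3. PARP4, a component of cytoplasmic vault particles, and PARP8 were called in no comparison, with IVM differences of 0.07 ± 0.12 and 0.06 ± 0.05.

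Probe sets of 1 gene did not always give 1 answer. Of the 9 member genes with more than 1 probe set, PARP1 and RAD9A were called higher with IVM by every probe set, and ATM and LIG3 by none. BRCA1, ERCC5, OGG1, PARP11 and RAD50 were called by some and not by others, with no gene called in opposite directions. Whether the discordant probe sets read different transcripts of the gene was not tested.

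**Figure D4:**
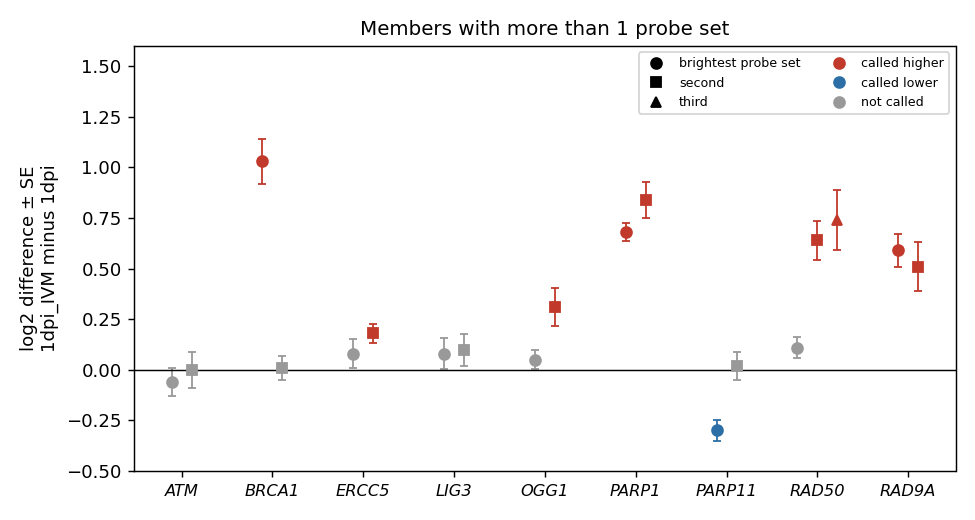
Log2 difference ± SE of 1dpi_IVM minus 1dpi for each probe set of the 9 member genes that have more than 1, with symbols by brightness (circle, square, triangle) and colours by call. The BRCA1 probe sets read 1.03 and 0.01, and the 3 of RAD50 read 0.11, 0.64 and 0.74; the blue PARP11 point turns to 0.34 after spike-in centring.

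Repair and damage response genes outside the chosen families gave a wider view. Of 97 probe sets for 83 such genes, 38 were called higher and 17 lower with IVM, 21 higher and 41 lower in 1dpi against 0dpi, and 6 higher and 4 lower in 1dpi_IVM against 0dpi. The shares of all probe sets in those comparisons were 29% and 25%, 24.7% and 28.2%, and 2.26% and 3.34%. After spike-in centring the first of these splits became 91 higher and 3 lower, beside 87.5% and 5.6% of all probe sets, and the second 2 higher and 87 lower, beside 6.32% and 84.6%. With IVM the calls of smallest p among higher genes were CDC25A, the phosphatase that CHEK1 restrains (1.46 ± 0.054, adjusted p = 8.82e-09), CHAF1A, which deposits histones on newly made DNA (1.35 ± 0.053 on the probe set of smallest p), and HLTF, a ligase and translocase of stalled forks (1.13 ± 0.066). The same genes led the calls of lower genes in 1dpi against 0dpi, at -1.23 ± 0.054, -1.11 ± 0.053 and -1.31 ± 0.066. PCNA, the replication clamp that most repair synthesis also uses, was counted with the DNA replication genes and not with these 97 probe sets. It was higher with IVM on both of its probe sets (1.39 ± 0.064 and 0.73 ± 0.05). Both were also called higher in 1dpi_IVM than in 0dpi (0.35 ± 0.064, adjusted p = 0.0121, and 0.23 ± 0.05, adjusted p = 0.0242). Those calls were lost in 1 and 4 of 9 fits that each left out 1 array.

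Among damage-inducible genes, SESN1, GADD45B and GADD45G were called lower with IVM, GADD45A was called higher and MDM2 was not called. SESN1, a stress-induced gene, read 6.25, 6.09 and 6.17 in 1dpi_IVM, 8.10, 8.14 and 8.16 in 1dpi, and 6.87, 7.06 and 6.92 in 0dpi, a difference of -1.97 ± 0.063 with IVM (adjusted p = 3.16e-09). GADD45B, a stress sensor that signals to p38 and JNK kinases, read 6.22, 6.30 and 5.86 in 1dpi_IVM, 8.14, 8.02 and 8.08 in 1dpi, and 6.67, 6.63 and 6.75 in 0dpi (-1.95 ± 0.10 with IVM, adjusted p = 8.96e-08). Both were called higher in 1dpi than in 0dpi (1.18 ± 0.063 and 1.40 ± 0.10) and lower in 1dpi_IVM than in 0dpi (-0.78 ± 0.063 and -0.56 ± 0.10). Its relative GADD45G was lower with IVM (-1.33 ± 0.05, adjusted p = 8.82e-09) and lower in 1dpi_IVM than in 0dpi (-0.81 ± 0.05), and was called higher in 1dpi than in 0dpi (0.53 ± 0.05), a difference that was -0.02 after spike-in centring. GADD45A, the member of that family classically induced by DNA damage, was at 8.15, 8.17 and 8.35 in 1dpi_IVM, 7.59 on each 1dpi array, and 8.47, 8.43 and 8.41 in 0dpi. It was 0.63 ± 0.059 higher with IVM (adjusted p = 6.85e-06) and differed by -0.85 ± 0.059 in 1dpi against 0dpi (adjusted p = 8.52e-07). MDM2, a ubiquitin ligase of the damage response, was not called with IVM (0.08 ± 0.088) and was lower in 1dpi than in 0dpi (-0.34 ± 0.088, adjusted p = 0.0082).

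A few other genes of this wider set were singled out by p. The brightest probe set of REV3L, the catalytic subunit of a polymerase that bypasses damage, was called higher in 1dpi than in 0dpi (0.61 ± 0.053) and was -0.70 ± 0.053 with IVM, and neither was called after spike-in centring. Its dimmer probe sets were not called. In 1dpi_IVM against 0dpi the higher calls of smallest p were USP1, which removes ubiquitin from FANCD2 and PCNA (0.36 ± 0.059, adjusted p = 0.00644), MGMT, which takes alkyl groups off guanine (0.23 ± 0.047, adjusted p = 0.0193), and RMI1, which helps dissolve recombination intermediates (0.24 ± 0.051, adjusted p = 0.0236). USP1 kept its call in all 9 fits that left out 1 array. MGMT lost it without 1dpi_IVM replicate 1 or 3 or 0dpi replicate 1 or 3 (adjusted p up to 0.0722), and RMI1 without any one of the 1dpi_IVM arrays or 0dpi replicate 1 or 3 (adjusted p up to 0.0848).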

How the data were processed

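Gene expression was measured on 9 Affymetrix axolotl arrays, 3 per group. The authors deposited log2 signals, which they obtained with RMA in Affymetrix Expression Console (versions not given in the sources used here), which corrects background, brings arrays to 1 distribution and summarises probes. Arrays give no read depth, so the number of arrays limits precision. Of 20080 probe sets, 45 controls (24 poly-A, 18 hybridization, 3 negative) were left out and 20035 tested with no filter on low values. Gene symbols came from the annotation of the array (10951 probe sets with 1 symbol, 9084 with none), and all 60 member symbols were found among the RefSeq axolotl genes. CHEK and APEX were read as prefixes.

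limma 3.58.1 in R 4.3.3 was fitted with 1 coefficient per group (eBayes without trend) and checked on simulated data. Arrays with the same number were not treated as pairs. The genes named were the largest called differences per comparison (up to 8 in each direction, 5 for 1dpi_IVM against 0dpi), the 3 members of smallest p per role, central repair genes regardless of calls, and, among other repair genes, the 3 of smallest p per direction and fixed damage markers; ATR partners, glycosylases, Fanconi genes and other members beyond these were added after their values were seen. The members and lists were chosen with earlier results of these data known. The alternatives tried were other variance models, scalings, filters, probe set summaries and thresholds, a replicate block, and leaving out each array.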

Additional observations from a re-analysis of the deposited data

How the results depend on the processing

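Centring on the poly-A spike-ins moved nearly the whole array. It gave 69 members higher and 0 lower in 1dpi_IVM against 1dpi, 0 higher and 67 lower in 1dpi against 0dpi, and 6 higher in 1dpi_IVM against 0dpi, beside 87.5% of all probe sets higher, 84.6% lower and 8.03% higher. For the other repair genes the counts became 91 and 3, then 2 and 87, then 10 higher. In 1dpi_IVM against 1dpi it turned ATM to 0.59, ATR to 0.37, NBN to 0.60, RAD18 to 0.64, FANCA to 0.36, FANCD2 to 0.49, FANCL to 0.42, BRCA2 to 0.58, XRCC2 to 0.25, XRCC5 to 0.35, ERCC4 to 0.63, ERCC6 to 0.43, RAD23B to 0.32, RAD54L2 to 0.57, PARP11 to 0.34, PARP6 to 0.45, MGMT to 0.34 and dim REV3L probe sets to 0.46 and 0.64. In 1dpi against 0dpi it turned ATM to -0.49, ATR to -0.38, POLK to -0.42, FANCA to -0.40, FANCF to -0.53, NBN, RAD18, FANCD2, BRCA2 and RAD54L2 to -0.45 each, XRCC2 to -0.29, MSH3 to -0.13, XRCC5 to -0.34, ERCC6 to -0.35, PARP11 to -0.27 and -0.47, PARP6 to -0.38, MGMT to -0.01, GADD45G to -0.02 and dim REV3L probe sets to -0.45 and -0.51. The spike-in difference itself produces these shifts, also for BRCA2 and RAD54L2, whose means lay below the background level. Its cause was not tested.

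Centring on array medians called 28 members higher and 10 lower with IVM (25.9% and 30% of all probe sets), and 10 higher and 25 lower in 1dpi against 0dpi (28.5% and 25.4%). Leaving out the dimmest 50% of probe sets kept 32 members, of which 17 were higher and 4 lower with IVM (43.2% and 32.5% of all probe sets kept) and 4 higher and 18 lower in 1dpi against 0dpi (32% and 42%), a fall that comes from the fewer members tested. The study counted axolotl genes that changed at least 2-fold, but its bioinformatics took every gene with an uncorrected p below 0.05, without a fold limit. In the limma fit, an unadjusted p below 0.05 with at least 2-fold kept 4 members higher and 0 lower with IVM (3.93% and 3.87% of all probe sets). This rule kept 0 higher and 1 lower in 1dpi against 0dpi (3.61% and 3.51%), and 0 higher in 1dpi_IVM against 0dpi (0.0349%). It kept 6 and 3, 2 and 6, and 0 and 0 of the other repair genes. A trended and robust variance gave 7 other repair genes lower in 1dpi_IVM against 0dpi, beside 4.58% of all probe sets. It gave 4 members higher and 0 lower there, beside 3.88% and 4.58% of all probe sets.

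Deviations from the group means correlated at -0.22 to 0.23 between same-numbered arrays of different groups. Different-numbered arrays gave -0.16 to 0.20, so with 3 arrays per group these values cannot settle whether the numbers pair the pools. With the replicate block, 30 members were higher and 7 lower with IVM (28.2% and 24.2% of all probe sets), 6 higher and 32 lower in 1dpi against 0dpi (23.8% and 27.4%), and 1 higher in 1dpi_IVM against 0dpi (1.45%), with 1 other repair gene higher there.

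With 1 array left out at a time, the members called higher and lower numbered 27 to 30 and 7 to 10 with IVM, 5 to 7 and 23 to 30 in 1dpi against 0dpi, and 0 to 4 and 0 to 1 in 1dpi_IVM against 0dpi. The other repair genes called higher and lower numbered 35 to 39 and 14 to 18, 15 to 21 and 37 to 41, and 1 to 7 and 3 to 5. Of all probe sets in these fits, 26.9% to 29.1% were higher and 22.8% to 24.9% lower with IVM. In 1dpi against 0dpi 22.4% to 24.5% were higher and 25.9% to 28.2% lower. In 1dpi_IVM against 0dpi 1.09% to 2.29% were higher and 2.11% to 3.26% lower. In all 9 such fits 27 of the 29 higher and 7 of the 9 lower members kept their calls with IVM, 4 of 7 and 21 of 30 in 1dpi against 0dpi, and 0 of 3 in 1dpi_IVM against 0dpi. The alternatives for the other repair genes were added after the data were seen.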
